A study of Homo sapiens with 24 samples.

Results

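Chromatin was mapped around 9 genes of the mesenchymal matrix and of cell adhesion in RD cells, an established line of human fusion-negative rhabdomyosarcoma. The genes were VIM, FN1, COL1A1, COL1A2, COL3A1, COL5A2, CDH2, POSTN and SPARC, and they were reached through 8 windows of build hg19, COL3A1 and COL5A2 sharing 1. The windows ran from 17220001 to 17330000 on chromosome 10 for VIM, from 216170001 to 216350000 on chromosome 2 for FN1 and from 48210001 to 48330000 on chromosome 17 for COL1A1. They ran from 93970001 to 94110000 on chromosome 7 for COL1A2, from 189790001 to 190100000 on chromosome 2 for COL3A1 and COL5A2, and from 25480001 to 25810000 on chromosome 18 for CDH2. The last pair ran from 38090001 to 38220000 on chromosome 13 for POSTN and from 150990001 to 151120000 on chromosome 5 for SPARC. The windows were set by gene name, and no measured value entered their rule, but earlier results of these data were known when the genes were chosen. Every peak that overlapped a window by at least 1 bp was a member, which gave 654 of the 564552 peaks in 14 lists, from 13 to 74 per library.

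The series holds 24 ChIP-seq samples, of which 14 have peak lists and 10 are inputs that were not used here. RD cells labelled control and RD cells with TWIST2 knockdown (KD) were compared for 3 antibodies, against H3K27ac, MYOD and SMARCA4, with 2 libraries in each group. A further 2 libraries came from RD cells with 3xTy1-TWIST2, precipitated with a Ty1 antibody, and have no other condition beside them. The labels place SMARCA4 in a set called RD-2 and the other antibodies in a set called RD-1. They do not give the means of knockdown, how 3xTy1-TWIST2 was expressed, or whether the 2 libraries of a group came from separate cultures, so the spread between them may be technical.

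The matrix of connective tissue is built on fibrils of type I, III and V collagen, with fibronectin and matricellular proteins bound to them. Cells that take on a mesenchymal state make this matrix, fill their cytoskeleton with vimentin and join to each other through N-cadherin. TWIST2 belongs to the TWIST factors, which are known as drivers of this state, and it binds E-boxes, CANNTG, as MYOD does when it turns on muscle genes. H3K27ac marks active promoters and enhancers, and SMARCA4 is an ATPase of the SWI/SNF remodelling complexes. Peaks were called in each library separately, and a peak list records where enrichment passed the authors' threshold, not the strength of the signal on either side of it.

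Promoter sequences of 5 of the 9 genes were found in a RefSeq table of build GRCh38.p14, those of VIM, FN1, CDH2, POSTN and SPARC. The 3 matrix genes among them are printed because TWIST2 and MYOD share the E-box, with every CANNTG in capitals. Each is the 250 bases before the gene's start, written 5' to 3' on the gene's strand. FN1 is chr2:215436069-215436318, POSTN is chr13:37598769-37599018 and SPARC is chr5:151686916-151687165, all on the minus strand.
FN1: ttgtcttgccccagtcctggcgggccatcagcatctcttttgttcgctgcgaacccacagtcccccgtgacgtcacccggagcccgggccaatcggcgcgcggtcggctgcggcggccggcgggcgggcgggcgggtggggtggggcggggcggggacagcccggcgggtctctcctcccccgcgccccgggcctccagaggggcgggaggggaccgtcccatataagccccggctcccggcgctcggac
POSTN: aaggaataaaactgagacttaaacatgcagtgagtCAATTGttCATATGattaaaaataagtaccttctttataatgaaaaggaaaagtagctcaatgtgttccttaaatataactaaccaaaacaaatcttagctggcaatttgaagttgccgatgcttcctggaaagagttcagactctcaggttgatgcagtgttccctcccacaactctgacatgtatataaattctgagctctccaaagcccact
SPARC: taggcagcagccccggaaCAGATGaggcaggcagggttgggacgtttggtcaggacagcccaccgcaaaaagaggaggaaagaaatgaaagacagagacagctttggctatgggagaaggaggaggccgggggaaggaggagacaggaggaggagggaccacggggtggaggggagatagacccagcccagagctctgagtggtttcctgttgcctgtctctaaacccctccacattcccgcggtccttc
POSTN held 2 E-boxes, CAATTG and CATATG, SPARC held 1, CAGATG, and FN1, VIM and CDH2 held 0. The form CAGCTG, favoured by MYOD, was in none of the 5. Over the promoters of the table, 35116 in all, 61.8% held at least 1 CANNTG and 14% at least 1 CAGCTG; both motifs read the same on both strands. These coordinates are of another build than the peaks, so the sequences were not placed against peaks, and the letters are given as a description only. No hg19 gene annotation was used, so peaks are given by position and not as promoter, exon, intron or UTR.

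Flanking genes may also own peaks in these windows. In the RefSeq order the nearest neighbours are SGCA and TMEM92 for COL1A1, BET1 and CASD1 for COL1A2, GULP1 and WDR75 for the COL3A1 and COL5A2 pair, and ATIC and MREG for FN1. Those of POSTN are CSNK1A1L and TRPC4, those of SPARC are FAT2 and ATOX1, those of VIM are TRDMT1 and ST8SIA6, and those of CDH2 are CHST9 and DSC3.

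The whole lists differed in length between groups, which touches every count below. The H3K27ac lists held 36679 and 34932 peaks in control and 48022 and 46822 in KD, and the MYOD lists held 44974 and 43381 against 52510 and 48003. Peak width was fixed within each MYOD list, at 159 and 179 bp in control and 213 and 225 bp in KD. MYOD covered length thus carries this width as well as peak number, and the part of width in MYOD overlaps was not tested. The SMARCA4 lists held 11835 and 25013 peaks in control and 12518 and 14676 in KD. SMARCA4 control 2 stood apart from the other 3. Total tags were 46690705 and 44810601 in control and 36095336 and 41066933 in KD. The headers gave an approximate IP efficiency of 0.88% and 1.83% in control and 0.65% and 0.70% in KD. SMARCA4 peak width was fixed at 195 and 159 bp in control and 141 and 145 bp in KD. Tags, efficiency and width were thus lower in both KD libraries, and their part in the SMARCA4 differences below was not tested. Read depth is unknown for the H3K27ac, MYOD and Ty1 lists, which hold positions only.

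H3K27ac was present in all 8 windows and in all 4 libraries, and its peaks covered more of the windows in KD than in control. Covered length in the windows was 179 and 171 kb in control and 225 and 218 kb in KD, means of 175 ± 6.29 and 221 ± 5.27 kb (SD, n = 2). The groups did not overlap, and the KD to control ratio was 1.27, with an exact two-sided permutation p of 0.333, the smallest that 2 libraries against 2 can give. The whole lists had the same ratio, 1.27, and as a share of each library's own list the windows had a ratio of 0.995. The 8 windows in sum thus differed by as much as the lists did.

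The difference was unevenly spread over the genes. Covered length was 2-fold or more higher in KD, with no overlap between groups, in 3 of the 8 windows, those of COL1A2, FN1 and POSTN. Over the genome, 21% of 10426 windows of 150 kb with H3K27ac in both groups met the same rule, and their median ratio was 1.25. Covered length was higher in KD without overlap in 6 of the 8 windows (63.8% of genome windows), and lower without overlap in 1, that of VIM (18.8%). The SPARC window had overlapping groups. In the COL1A2, FN1 and POSTN windows the KD value stayed higher as a share of each library's list, at ratios of 2.58, 1.60 and 3.01. The COL1A1, COL3A1-COL5A2 and CDH2 windows then had ratios of 0.825, 0.969 and 0.98, and the VIM and SPARC windows 0.715 and 0.781. The exact two-sided permutation p of these shares was 0.333 for COL1A1, VIM and SPARC.

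**Figure D1:**
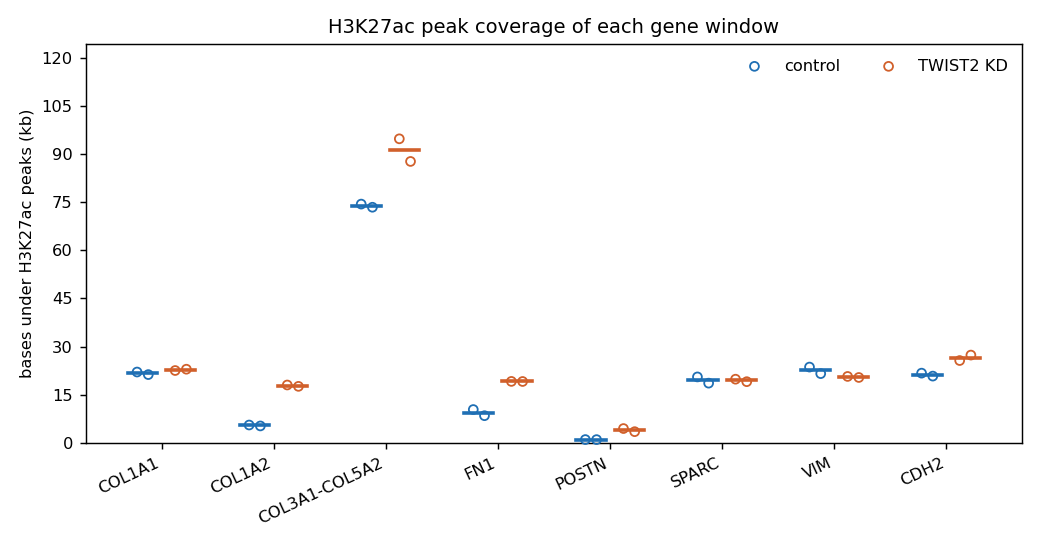
Bases under H3K27ac peaks in kb (y axis) in each gene window (x axis), with 1 open circle per library and a bar at the mean of 2 libraries, control in blue and TWIST2 KD in orange. The KD circles sit at 17.6 to 19.2 kb in the COL1A2 and FN1 windows, against 5.30 to 10.4 kb in control, and the circles of the 2 groups overlap in the SPARC window.

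Peaks that overlapped across the 4 libraries of an antibody were merged into regions. A region was KD-only if both KD libraries and no control library had a peak in it, control-only in the reverse case, shared if all 4 libraries had one, and mixed otherwise. Of 77 H3K27ac regions in the windows, 13 were KD-only (16.9%), against a background of 19.8% over all 55905 regions. Control-only regions numbered 4 (5.19%, background 4.21%), 42 were shared (54.5%, background 49.1%) and 18 were mixed (23.4%, background 26.9%). The windows as a group were near the background in each class. With KD 2 left out the KD-only count was 20, and with control 2 left out the control-only count was 8. The KD-only regions lay mainly in the FN1 window, 4 of its 8 regions, and the COL1A2 window, 3 of 10, with 0 in the VIM and COL1A1 windows.

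COL1A2 encodes the second chain of type I collagen, and its window had the largest KD to control ratio among the 3 collagen windows. H3K27ac covered 5.58 and 5.30 kb in control and 18.0 and 17.6 kb in KD, a ratio of 3.28, with 4 and 3 peaks in control and 10 and 8 in KD. With the upper fraction of 0.5 of each list alone, by list order, the ratio was 5.55. Both KD libraries exceeded both controls by far more than the spread within either group. The widest region of the window, chr7:94078420-94082844, was KD-only and held 3334 and 3710 bp of peaks. The region contained 2 MYOD regions, 1 of them shared by all 4 MYOD libraries, and no TWIST2 region, which is a region with a peak in both Ty1 libraries.

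A further pair of KD-only regions lay near the start of the COL1A2 window. They were chr7:93976590-93978361, with 1772 and 1488 bp, and chr7:93984456-93985591, with 1072 and 892 bp. Each contained a TWIST2 region, and the second also contained a shared MYOD region. All 3 shared regions of the window were wider in KD without overlap. The region with the largest ratio, chr7:94002694-94006347, measured 1278 and 1492 bp in control and 3601 and 3639 bp in KD, a ratio of 2.61. At chr7:94020379-94023078 the widths were 1162 and 1157 bp in control and 2627 and 2700 bp in KD, and a KD-only MYOD region, chr7:94021324-94021561, lay inside it.

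COL1A1 encodes the partner chain of COL1A2 in type I collagen, and its window differed little between groups. H3K27ac covered 22.1 and 21.3 kb in control and 22.6 and 23 kb in KD, a ratio of 1.05, in 7 and 8 peaks against 7 and 7. The groups did not overlap in covered length but did in peak number. Its widest region, chr17:48254517-48260272, measured 5639 and 5574 bp in control and 5454 and 5587 bp in KD and contained 2 shared MYOD and 2 TWIST2 regions. The shared region with the largest ratio was chr17:48294932-48298236, picked for that after its values were seen, at 2333 and 2124 bp in control and 3305 and 3261 bp in KD. A KD-only MYOD region, chr17:48297358-48297631, lay in it.

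The 2 chains of type I collagen thus had unlike windows, with a ratio of 3.28 at COL1A2 and 1.05 at COL1A1. The difference between these ratios was not tested. The COL1A2 window started from a level in control of 5.30 to 5.58 kb and the COL1A1 window from 21.3 to 22.1 kb, and in KD they stood at 17.6 to 18.0 and 22.6 to 23 kb.

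The window of COL3A1, which encodes type III collagen, and COL5A2, a chain of the type V collagen that co-assembles with type I, carried the most H3K27ac of the 8. Coverage was 74.4 and 73.4 kb in control and 94.7 and 87.7 kb in KD, a ratio of 1.23, close to that of the whole lists. Peak numbers overlapped, at 17 and 13 against 17 and 15. The window contained very wide regions. The widest, chr2:189977778-189998863, held 20222 and 20352 bp of peaks in control and 19938 and 17192 bp in KD, and in control only 0.123% to 0.164% of the peaks of a list were at least as wide as its peak. Each control library had 1 peak across this region and each KD library had 2.

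Elsewhere in the window, chr2:189832368-189853305, measured 13249 and 13169 bp in control and 20806 and 20445 bp in KD, a ratio of 1.56. A KD-only MYOD region, chr2:189834014-189834328, lay inside it, with its centre 41.5 bp from that of a TWIST2 region. The opposite was seen at chr2:190066195-190070749, with 4555 and 3975 bp in control and 2658 and 2625 bp in KD, a ratio of 0.62. Both regions were picked after their values were seen. KD-only H3K27ac regions numbered 2 of the window's 18, chr2:189801983-189803314 with 1332 and 951 bp and chr2:189956779-189958183 with 748 and 846 bp, and neither contained a TWIST2 region. In the window as a whole 6 of 11 shared regions were wider in KD and 3 wider in control without overlap.

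**Figure D2:**
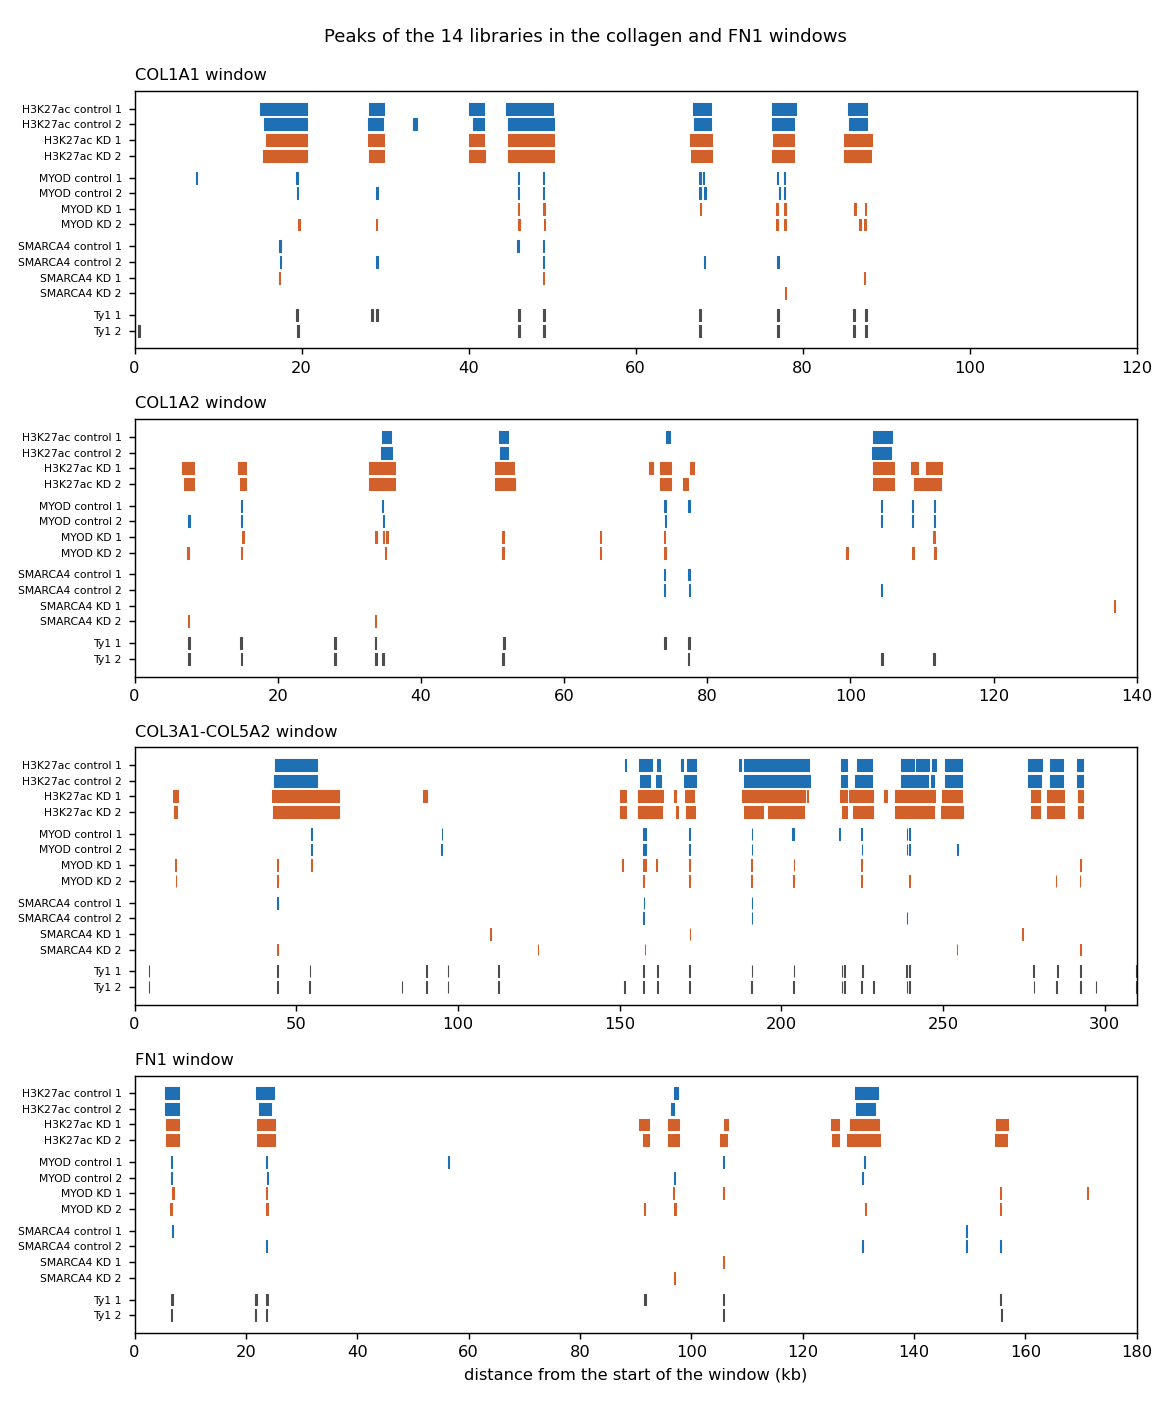
Positions of the peaks of 14 libraries (rows, control in blue, TWIST2 KD in orange, Ty1 in dark grey) along the COL1A1, COL1A2, COL3A1-COL5A2 and FN1 windows (x axis, distance from the window's start in kb). The KD-only H3K27ac regions appear as orange bars with no blue bar above them, 3 in the COL1A2 window, 2 in the COL3A1-COL5A2 window and 4 in the FN1 window.

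FN1 encodes fibronectin, the adhesive glycoprotein that integrins bind. H3K27ac covered 10.4 and 8.49 kb of its window in control and 19.2 and 19.1 kb in KD, a ratio of 2.03, in 4 and 4 peaks against 8 and 8. Each of its 8 regions was either shared or KD-only. The widest, chr2:216298036-216303884, measured 4059 and 3355 bp in control and 5327 and 5849 bp in KD. A narrow shared region, chr2:216265715-216267809, measured 654 and 501 bp in control and 2095 and 1921 bp in KD, a ratio of 3.48, the largest among the shared regions of the 8 windows. Its control peaks stood low in the lists, at positions of 12.6% and 0.271%, and 501 bp is the smallest width in the control 2 list.

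The 4 KD-only regions of the FN1 window differed in what lay with them. The region chr2:216324527-216326797, with 2081 and 2147 bp of peaks, contained the KD-only MYOD region chr2:216325398-216325643 and a TWIST2 region. At chr2:216275203-216276658, with 764 and 1251 bp, there was a TWIST2 region and a mixed MYOD region. At chr2:216260530-216262406, with 1865 and 1026 bp, there was no TWIST2 region. The last, chr2:216295151-216296484, with 1284 and 1262 bp, contained no MYOD, SMARCA4 or TWIST2 region. With the window shortened by 50 kb at each side the ratio was 6.89; the shorter window leaves out 2 shared regions and cuts through the widest one.

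POSTN encodes periostin, a matricellular protein that binds collagen and fibronectin, and its window had the least H3K27ac. Coverage was 1.05 and 1.04 kb in control and 4.48 and 3.51 kb in KD, a ratio of 3.83 on few bases, in 1 and 1 peaks against 3 and 2. The control peaks all belonged to 1 shared region at the window's end, chr13:38218487-38221504, at 1281 and 1298 bp in control and 2672 and 3018 bp in KD over its full width. The KD-only region chr13:38190733-38193351 held 2619 and 1999 bp and no TWIST2 region. With the window shortened by 50 kb at each side, no H3K27ac peak was left in it and no ratio could be formed.

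SPARC encodes osteonectin, a collagen-binding matricellular glycoprotein. H3K27ac covered 20.6 and 18.6 kb in control and 19.9 and 19.1 kb in KD, in 7 and 6 peaks against 7 and 6. The ratio was 0.994 with overlapping groups, and 0.781 as a share of each library's list. The widest region, chr5:151072452-151081214, measured 8750 and 8518 bp in control and 8270 and 8026 bp in KD. One control-only region, chr5:151057510-151058847 (1338 and 632 bp), and 1 KD-only region, chr5:151108631-151109386 (756 and 626 bp), stood in the window. A region that crossed the window's end, chr5:151118438-151122364, measured 2449 and 2390 bp in control and 3927 and 3794 bp in KD, and with windows lengthened by 50 kb at each side the SPARC ratio was 1.25.

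VIM encodes vimentin, the intermediate filament of mesenchymal cells, and among the 8 windows its window alone had lower H3K27ac coverage in KD with no overlap between groups. Coverage was 23.6 and 21.6 kb in control and 20.7 and 20.4 kb in KD, a ratio of 0.909. With the window shortened by 50 kb at each side the ratio was 1.05, with an exact two-sided permutation p of 0.667. The shorter window holds only part of the shared region chr10:17268072-17275200. All 4 libraries had 6 peaks in the full window. The widest region, chr10:17255010-17263223, was 1 peak in each control library and 2 peaks in each KD library, holding 7455 and 6645 bp against 6443 and 6608 bp. At chr10:17247607-17250687 the widths were 2871 and 2478 bp in control and 1868 and 1700 bp in KD. The control-only region chr10:17299435-17299936 was narrow, at 501 bp in both control libraries.

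CDH2 encodes N-cadherin, the calcium-dependent adhesion molecule of mesenchymal and muscle cells. H3K27ac covered 21.7 and 20.8 kb of its window in control and 25.7 and 27.4 kb in KD, a ratio of 1.25, near the genome median, in 12 and 10 peaks against 11 and 12. With the upper fraction of 0.5 of each list alone, the ratio was 2.59. Here too a shared region could fall outside the fraction in control alone. One such was chr18:25500946-25502911, at list positions of 47.3% and 43.4% in control and 67.7% and 66.6% in KD. Its regions varied, with 2 KD-only, 2 control-only and 7 shared among 16. The widest, chr18:25752334-25759686, measured 6172 and 6659 bp in control and 7092 and 7041 bp in KD. Nearby, the control-only region chr18:25747974-25749301 held 1148 and 1059 bp, and the other control-only region, chr18:25655262-25656021, held 501 bp in each. The KD-only regions were also narrow, with 1005 and 501 bp at chr18:25620585-25621589 and 501 and 854 bp at chr18:25591093-25591946.

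**Figure D3:**
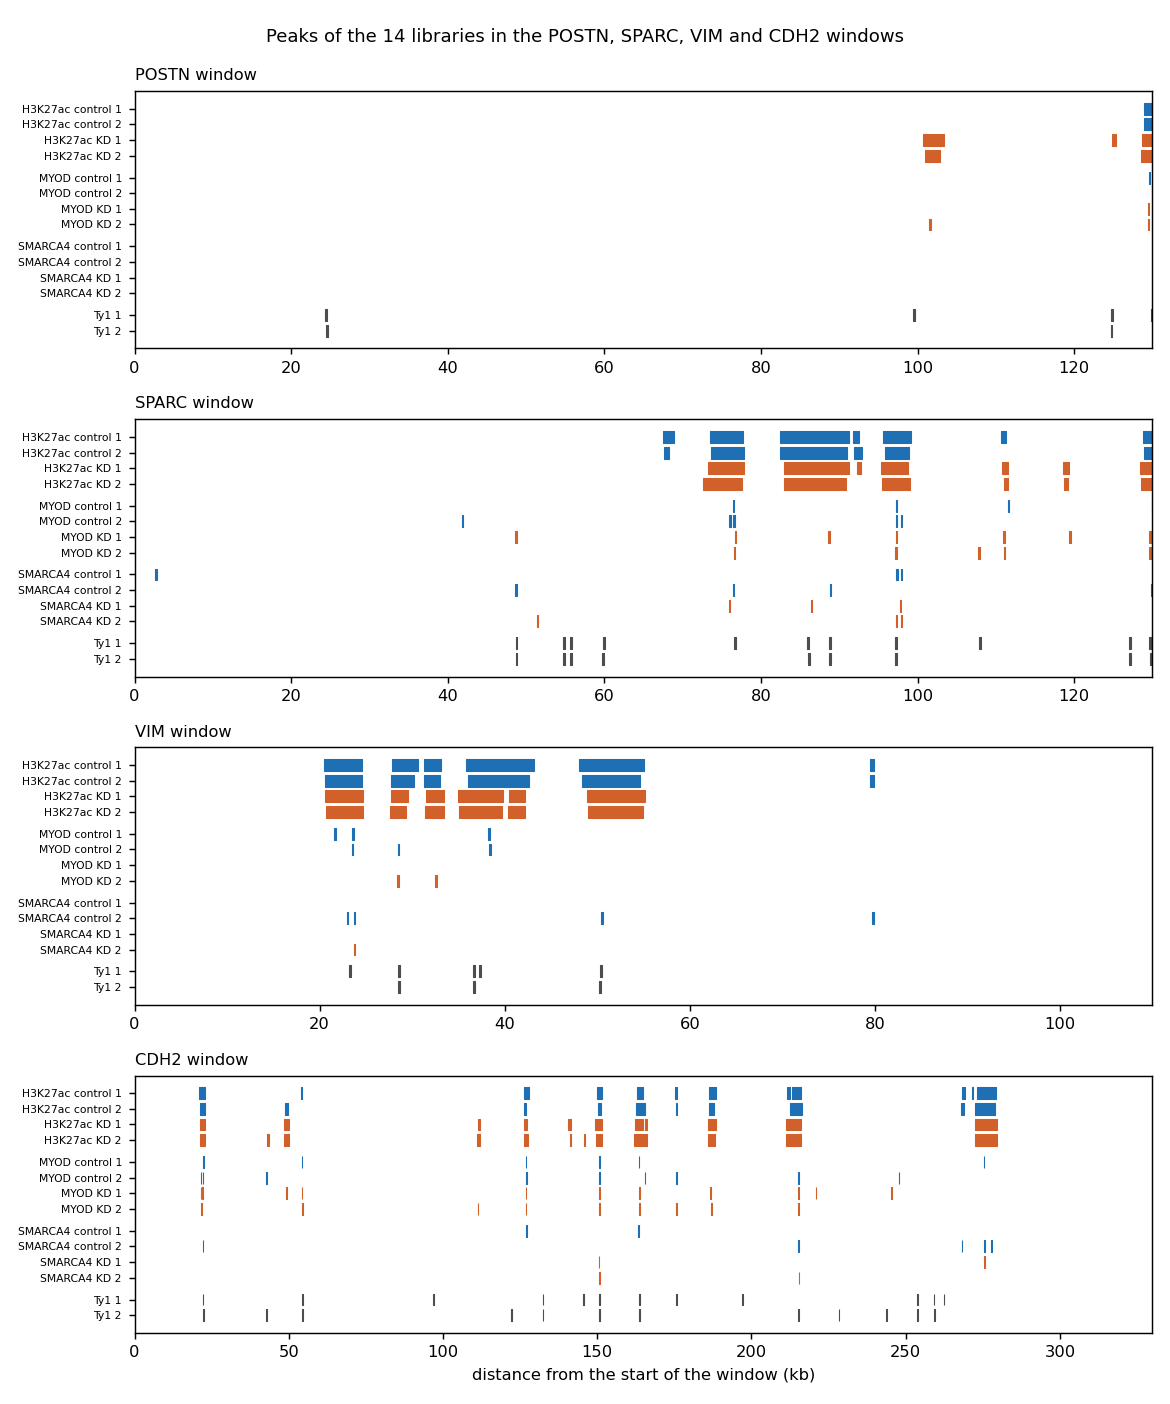
Positions of the peaks of 14 libraries (rows, control in blue, TWIST2 KD in orange, Ty1 in dark grey) along the POSTN, SPARC, VIM and CDH2 windows (x axis, distance from the window's start in kb). In the VIM window MYOD has 3 peaks in each control library and 0 and 2 in the KD libraries, and in the POSTN window no SMARCA4 peak was listed.

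Among the 42 shared H3K27ac regions, 24 were wider in both KD libraries than in both control libraries (57.1%), against 45.4% of all 27442 shared regions. The reverse held in 7 (16.7%), against 29.8%. By gene, all shared regions of the COL1A2 and POSTN windows (3 of 3 and 1 of 1), 3 of 4 in the FN1 window and 5 of 7 in the CDH2 window were wider in KD, with 0 wider in control. In the VIM window 1 of 5 was wider in KD and 2 were wider in control.

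**Figure D4:**
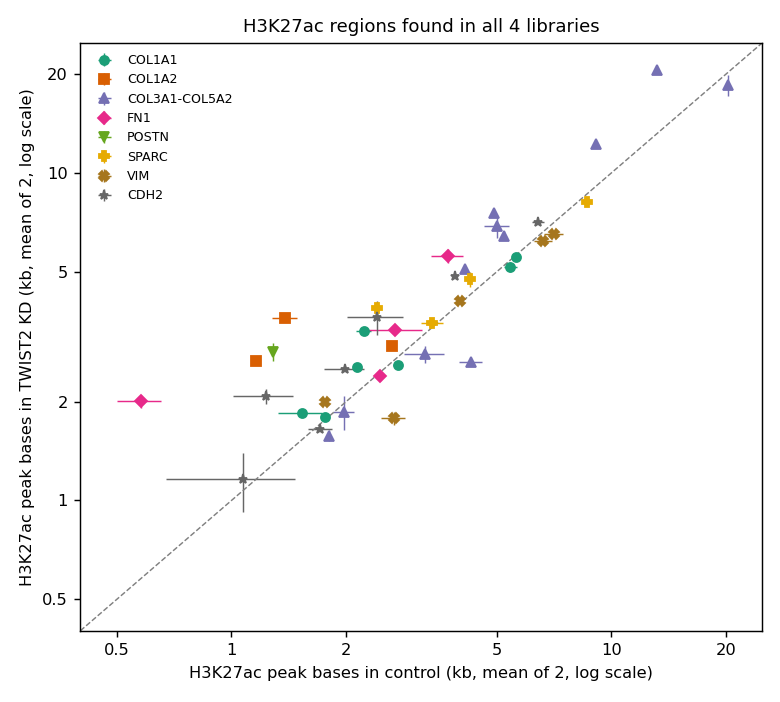
Bases under H3K27ac peaks in each of the 42 shared regions in control (x axis, mean of 2 libraries, kb, log scale) and in TWIST2 KD (y axis, the same), with 1 symbol per region by window, bars over the range of the 2 libraries and a dashed line of equal values. Of the 42 regions, 24 were wider in both KD libraries, and the point farthest above the line is the FN1 region of 654 and 501 bp in control and 2095 and 1921 bp in KD. The control peaks of that region stood at list positions of 12.6% and 0.271%.

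MYOD peaks were present in every window in at least 1 library, and their number in the windows was 46 and 46 in control and 52 and 51 in KD. The groups did not overlap (ratio 1.12, exact two-sided permutation p = 0.333), but the whole lists had a ratio of 1.14, and as a share of each list the windows had a ratio of 0.985. Of 95 MYOD regions, 10 were KD-only (10.5%, background 9.1% of 88541), 5 were control-only (5.26%, background 5.41%) 16 were shared (16.8%, background 20.3%) and 64 were mixed (67.4%, background 65.2%). These shares lay near the background. Leaving out 1 library moved the counts, to 20 and 23 KD-only without KD 1 and KD 2, and to 15 and 17 control-only without control 1 and control 2. The control-only count was 10 and 9 without KD 1 and KD 2. In all, 43 of the 95 regions had a peak in 1 library alone (45.3%, against 42.1% over the genome).

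The COL3A1-COL5A2 window had equal MYOD peak numbers in both groups, with differences by site. It had 12 and 10 peaks in control and 12 and 10 in KD, with 4 shared, 3 KD-only and 2 control-only regions. The KD-only regions were chr2:189834014-189834328, already named, chr2:189802651-189802904, which lay in a KD-only H3K27ac region, and chr2:190082335-190082622, whose centre was 6 bp from a TWIST2 centre. Of the control-only regions, chr2:190028788-190028966 was 22 bp from a TWIST2 centre and chr2:189884884-189885211 was outside H3K27ac.

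The COL1A2 window had 7 and 7 MYOD peaks in control and 8 and 9 in KD. Its KD-only regions were chr7:94021324-94021561 and chr7:94034965-94035194, the latter outside any H3K27ac region, and its control-only region was chr7:94074242-94074444. The COL1A1 window had 8 and 8 against 7 and 8 peaks, and the KD-only region named above. FN1 had 5 and 4 against 6 and 6, and SPARC 4 and 5 against 7 and 5, with KD-only regions at chr5:151100970-151101209 and chr5:151119545-151119778.

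VIM was the window where MYOD peaks were fewer in KD without overlap, at 3 and 3 in control and 0 and 2 in KD. These numbers are small, and genome windows with such a difference in MYOD peaks were not counted. Its 2 control-only regions, chr10:17243467-17243681 and chr10:17258234-17258502, both lay in shared H3K27ac regions and outside TWIST2 regions. They stood low in the lists, at a mean position of 27.9% and 13.0%, where 100% is the top of a list. CDH2 had 6 and 9 against 11 and 9 MYOD peaks with 1 KD-only region, chr18:25666721-25667102, and POSTN had 1 and 0 against 1 and 2.

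TWIST2 regions numbered 58 of the 88 Ty1 regions in the windows (65.9%), against 50.3% of all 96594 Ty1 regions. The COL3A1-COL5A2 window had 19, SPARC had 9, COL1A1 and CDH2 had 7 each, COL1A2 had 6, FN1 had 5, VIM had 3 and POSTN had 2. The Ty1 lists have no score, so their order was used as a rank, although the files do not say what the order means. In the upper 5% of both Ty1 lists stood 13 of the 58 (22.4%), against 5.83% of the 48591 TWIST2 regions of the genome. These 13 were in 2 collagen windows, with 10 of 19 in the COL3A1-COL5A2 window and 3 of 6 in the COL1A2 window, and 0 in the other 6 windows.

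The highest in the lists was chr2:190008675-190008913 in the COL3A1-COL5A2 window, at rank 35 of 74087 and rank 38 of 71100. It lay in a shared H3K27ac region, chr2:190008207-190010476, that held 2096 and 1851 bp in control and 2089 and 1647 bp in KD, with overlapping groups and no MYOD or SMARCA4 region. In the COL1A2 window the highest was chr7:93977455-93977700, at ranks 721 and 672, inside a KD-only H3K27ac region. In the FN1 window it was chr2:216193643-216193921, at ranks 5979 and 5474, which overlapped shared H3K27ac and shared MYOD regions. In the COL1A1 window it was chr17:48258848-48259116, at ranks 2842 and 3773, which also overlapped shared H3K27ac and shared MYOD regions.

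The highest TWIST2 regions of the remaining windows stood lower in the lists. They were chr5:151049761-151050027 in the SPARC window, at ranks 11223 and 9128, and chr18:25643523-25643789 in the CDH2 window, at 11504 and 16768. The VIM window had chr10:17256528-17256766, at 17588 and 12844, and the POSTN window chr13:38214648-38214920, at 22842 and 36005. Those of CDH2 and VIM lay in shared H3K27ac regions, and that of SPARC overlapped no region of the other antibodies.

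TWIST2 regions in the windows overlapped a shared H3K27ac region in 36 of 58 cases (62.1%), against 33.2% over the genome, and no region of the 3 antibodies in 13 (22.4%), against 38.3%. Of these 58, H3K27ac peaks overlapped 36 and 34 in control and 41 and 40 in KD, MYOD peaks 22 and 19 in control and 29 and 25 in KD, and SMARCA4 peaks 8 and 13 in control and 5 and 6 in KD. The groups did not overlap for any of the 3 antibodies. MYOD peaks were wider in KD, at 213 and 225 bp against 159 and 179 bp, and SMARCA4 peaks were narrower in KD. A wider peak can reach more regions, and the part of width in these counts was not tested. Over all TWIST2 regions of the genome, H3K27ac peaks overlapped 36.7% and 35.2% in control and 45.2% and 44.1% in KD, and MYOD peaks 29.5% and 29.3% against 34.0% and 32.9%. The corresponding SMARCA4 shares overlapped between groups, at 8% and 16.4% in control and 7.62% and 8.58% in KD. The groups thus stood apart genome-wide in the same direction for H3K27ac and MYOD, and the difference between windows and genome was not tested.

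MYOD and TWIST2 lay at the same place in a part of the MYOD regions. TWIST2 regions overlapped 36 of the 95 MYOD regions in the windows (37.9%, genome 27.4%). By class, they overlapped 11 of 16 shared MYOD regions (68.8%, genome 46.6%) and 6 of 10 KD-only ones (60%, genome 25%). They overlapped 1 of 5 control-only ones (20%, genome 21.0%) and 18 of 64 mixed ones (28.1%, genome 22.3%). The centres of both factors were within 50 bp of each other in 7 shared MYOD regions, in 2 that were KD-only and in 1 that was control-only. Such centres were not counted over the genome. The shared MYOD region highest in its lists, chr5:151087177-151087401 in the SPARC window, at a mean position of 99.4%, had its centre 18.5 bp from a TWIST2 centre. Libraries of tagged TWIST2 and of MYOD came from different cells, so overlap shows the same place and not binding at the same time.

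SMARCA4 peaks were few, and most were found in a single library. The windows held 15 and 28 peaks in control and 13 and 15 in KD, a ratio of 0.651 with overlapping groups and an exact two-sided permutation p of 0.667. The whole lists had a ratio of 0.738, and as a share of each list the windows had a ratio of 0.863. Without control 2 the ratio was 0.933, and without control 1 it was 0.5. Of 54 SMARCA4 regions, 40 had a peak in 1 library (74.1%, against 74.5% over the genome) and 0 were shared by all 4 (background 1.11%). KD-only regions numbered 1 (1.85%, background 1.91%) and control-only regions 5 (9.26%, background 6.68%), and 48 were mixed (88.9%, background 90.3%). Leaving out a library gave between 1 and 10 KD-only and between 5 and 23 control-only regions. The KD-only count was 10 without KD 1, 9 without KD 2 and 2 without control 1, and the control-only count was 23 without control 1 and 10 without control 2.

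The 5 control-only SMARCA4 regions lay in the COL3A1-COL5A2, COL1A2 and FN1 windows. In the COL3A1-COL5A2 window chr2:189947348-189947622 had HOMER peak scores of 46 and 57 and chr2:189980843-189981075 had 52 and 41. Their fold over input was 4.19 and 5.76, and 4.46 and 4.04, against a calling threshold of 4-fold. With values this near the threshold, a peak not listed in KD may lie just under it. Both regions overlapped a shared MYOD region, a TWIST2 region in the upper 5% of both Ty1 lists and a shared H3K27ac region. The first of these H3K27ac regions, chr2:189945683-189953358, measured 4941 and 4893 bp in control and 7554 and 7574 bp in KD, and the second was the widest of the window, given above. In both regions no SMARCA4 peak was listed in KD while MYOD and H3K27ac peaks were listed in all 4 libraries. Close to the first, at chr2:189947889-189948033, KD 2 alone had a SMARCA4 peak, with a score of 25, a region outside the rule that was picked after its values were seen.

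In the COL1A2 window the control-only SMARCA4 regions were chr7:94043948-94044142, with scores of 49 and 57 and a shared MYOD region, and chr7:94047348-94047562, with 40 and 41 and a TWIST2 region. Their fold over input was 6.01 and 5.76, and 4.78 and 4.56. The FN1 window had chr2:216319281-216319475, with scores of 25 and 31 and a fold of 4.25 and 5.75, outside the regions of the other antibodies. The 1 KD-only SMARCA4 region, chr18:25630583-25630788 in the CDH2 window, had scores of 15 and 25 and a fold of 5.26 and 5.27. It overlapped shared MYOD, shared H3K27ac and TWIST2 regions. By window, SMARCA4 peak numbers did not overlap between groups at FN1 alone, with 2 and 4 in control and 1 and 1 in KD. These numbers are small, and genome windows with such a difference in SMARCA4 peaks were not counted. VIM had 0 and 4 against 0 and 1, and POSTN had 0 in all 4 libraries.

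**Figure D5:**
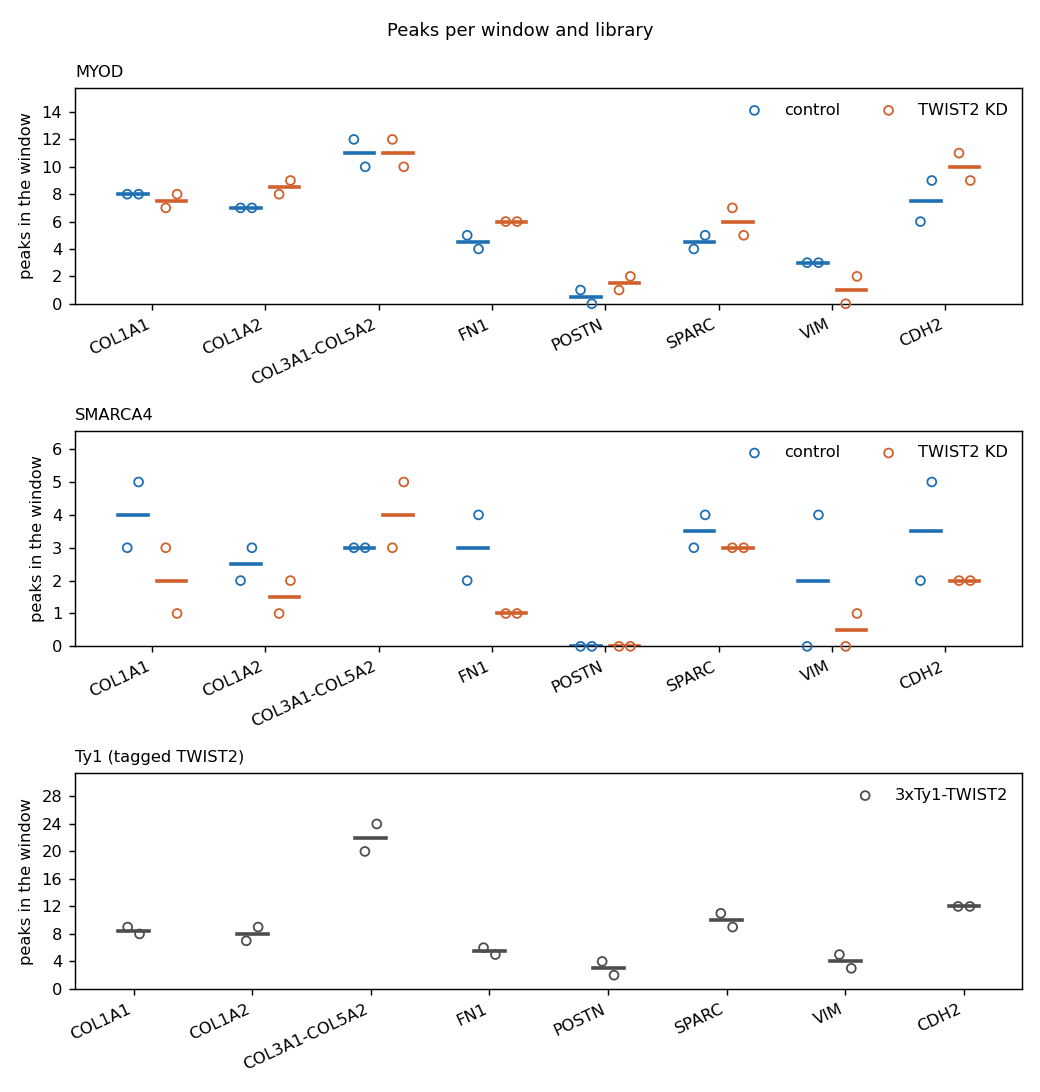
Number of MYOD, SMARCA4 and Ty1 peaks (upper, middle and lower panel) in each gene window, with 1 open circle per library and a bar at the mean of 2 libraries, control in blue, TWIST2 KD in orange and 3xTy1-TWIST2 in grey. MYOD circles of the 2 groups coincide in the COL3A1-COL5A2 window at 12 and 10, and the SMARCA4 control circles reach 5 in the COL1A1 and CDH2 windows. Ty1 peaks are most numerous in the COL3A1-COL5A2 window, at 20 and 24.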

How the data were processed

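Peak lists of 14 ChIP-seq libraries of RD cells were used as deposited. Per the submitters' processing notes, the tools were HOMER 4.4, bedtools 2.29.2, Bowtie2 2.3.4.3 and SAMtools 0.1.19, and the build was hg19 (GRCh37). The H3K27ac, MYOD and Ty1 lists deposited by the authors give peak positions only. Per the file headers, SMARCA4 peaks were called by HOMER in factor style at a false discovery rate of 0.001, at 4-fold over the input and over the local 10000 bp. For these the authors deposited a normalized tag signal, a peak score and a fold ratio over input for each peak; SMARCA4 ranks rest on the score alone.

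Groups came from the labels. The H3K27ac, MYOD and Ty1 lists were ranked by their order. Peaks of an antibody were merged at an overlap of at least 1 bp with Python 3.11.15, numpy 2.4.6 and pandas 2.3.3, checked against bedtools 2.31.1, and classed. The class counts were tested on 20000 simulated regions, of which 100% were recovered in each class. Peak numbers and covered length per library were compared by exact two-sided permutation. Plots used matplotlib 3.10.9.

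Regions were named by rule in each window: the widest H3K27ac region, every KD-only and control-only region (at most 3 per class and antibody, the widest for H3K27ac and the highest in the lists for others), SMARCA4 regions of all 4 libraries, and the TWIST2 region highest in the lists. Other regions named were picked after their values were seen. The genes, windows and lists were chosen with earlier results of these data known. GRCh38 gene starts of the RefSeq table fell in H3K27ac peaks of control 1 for 6.30% of 35116 starts and, after a shift of 1000000 bp, for 4.14%, so no GRCh38 position was set against a peak. A planned list of further matrix and adhesion genes was not used here, for want of an hg19 annotation.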

Additional observations from a re-analysis of the deposited data

How the results depend on the processing

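The alternatives were the upper fraction of 0.5 of each list, the same number of peaks per library, windows shortened or lengthened by 50 kb, the share of each library's list, merging up to 500 bp apart, peaks set to 200 bp, an overlap of at least 0.5 of the shorter peak, the replicate block and leaving out each library. Apart from leaving out libraries, of the values for all windows together 68 kept their direction (ratios) or stayed within 1.5 times (counts), 8 counts moved further and 5 ratios turned direction. The replicate-block ratios are among the 68 and equal the main ratios by construction. Of the H3K27ac ratios of single windows, 30 kept their direction or, for SPARC, stayed within its spread, 4 of SPARC moved beyond it and 4 turned. The SPARC groups overlapped, so SPARC was judged by spread and not by direction. Its ratio was 1.03 in the upper fraction and 1.25 with windows lengthened. Keeping direction, ratios moved by over 1.5 times for FN1 with its window shortened (6.89), for COL1A2 and CDH2 in the upper fraction (5.55 and 2.59) and for SMARCA4 covered length as a share of the list (0.863). As a share of the list the KD to control ratios were 0.922 (H3K27ac peaks), 0.995 (H3K27ac covered length), 0.985 (MYOD peaks) and 0.995 (MYOD covered length), and by window 0.825 for COL1A1, 0.969 for COL3A1-COL5A2 and 0.98 for CDH2, because the KD lists were longer. With windows shortened the MYOD peak ratio was 0.957 and the VIM ratio 1.05, and the counts were 6 KD-only H3K27ac, 3 KD-only MYOD, 2 control-only MYOD and 28 TWIST2 regions, in shorter windows by construction; POSTN then gave no value, as in the upper fraction. At equal list lengths 7 H3K27ac regions were KD-only. In the upper fraction of the lists control-only counts were 0 for H3K27ac and 2 for MYOD, and 0 SMARCA4 regions were KD-only.

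Leaving out 1 library kept 37 values for all windows and moved 13 counts; it gave ratios of 1.15 to 1.3 for H3K27ac peaks, 1.23 to 1.3 for H3K27ac covered length, 1.11 to 1.13 for MYOD peaks, 1.37 to 1.57 for MYOD covered length, 0.5 to 0.933 for SMARCA4 peaks and 0.450 to 0.685 for SMARCA4 covered length. H3K27ac KD-only counts ranged from 14 to 20 and control-only counts from 4 to 8, those of MYOD from 11 to 23 and from 9 to 17, and those of SMARCA4 from 1 to 10 and from 5 to 23, since fewer libraries make each class easier to meet. TWIST2 regions numbered 72 to 74 from 1 Ty1 library. The covered length ratios of MYOD and SMARCA4 repeat peak number together with the fixed width of each list. That width was larger in KD for MYOD and smaller in KD for SMARCA4. Over all regions, libraries with the same replicate number did not deviate together (Pearson r of 0.00527 for H3K27ac, -0.000117 for MYOD and -0.0312 for SMARCA4). These values gave no sign of pairing by number but cannot exclude it, as the labels do not say which libraries were made together. The replicate block compares KD and control libraries of the same number and changes only the p, whose smallest value is then 0.5. By construction its ratios equal those without it, at 1.22 for H3K27ac peaks and 1.27 for H3K27ac covered length. They were 1.12 and 1.46 for MYOD and 0.651 and 0.543 for SMARCA4. With 2 libraries a group, no comparison could reach 0.05, and a peak that is not listed may lie just under the threshold.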
